A study of Homo sapiens with 4 samples.

Results

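Hypoxia-inducible genes that act outside glycolysis were followed in U251 cells, an established human glioblastoma (GBM) cell line, after knockdown of PRMT3, a protein arginine methyltransferase. The 34 genes were chosen by name, all 34 were found in the gene count table of 15575 genes, and 31 of them passed the filter on low counts. RNA-seq was done on 2 libraries of U251 cells with control shRNA (Ctrl) and 2 libraries of U251 cells with PRMT3 shRNA (PRMT3-KD), all transduced with lentivirus, with the knockdown at 72 h. The titles of the Ctrl libraries name the vector pGreen, those of the PRMT3-KD libraries do not. Neither the PRMT3 shRNA used, nor whether replicate numbers mark separate cultures, nor the oxygen level of the cultures is given in the sources used here, so p-values measure only the spread between these libraries, which may be technical.

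Cells sense oxygen through hypoxia-inducible factors (HIFs). With oxygen present, prolyl hydroxylases of the EGLN family mark the HIF-α subunits for destruction by VHL, and the asparaginyl hydroxylase HIF1AN blocks their contact with the coactivators CREBBP and EP300. When oxygen falls, HIF1A or EPAS1 pairs with ARNT and binds hypoxia response elements, whose core reads ACGTG or GCGTG. Besides the enzymes of glycolysis, this response includes secreted factors that call in blood vessels, surface proteins for pH, iron and chemokine sensing, mitochondrial proteins, glycogen enzymes, nuclear regulators and regulators of lipid storage. In glioblastoma it is known from the cells around necrotic tissue. Most of these genes also answer to other signals.

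Among the 5 genes whose promoters are shown, only ADM passed the threshold used below. The promoters are shown because HIFs act through this DNA element. They are given with the response element core ACGTG, on either strand, in capitals. They run from 250 bases before to 50 bases after the start site in RefSeq (GRCh38.p14), in the direction of the gene. CITED2, AK4 and BNIP3 each hold 1 palindrome that reads as the core on both strands, CA9 holds 1 core on the opposite strand, and ADM holds no ACGTG in this window. The other form of the core, GCGTG, is not in capitals; on either strand it has 1 match in ADM, 1 in AK4 and 4 in BNIP3.
CITED2 chr6:139374599-139374898 (- strand): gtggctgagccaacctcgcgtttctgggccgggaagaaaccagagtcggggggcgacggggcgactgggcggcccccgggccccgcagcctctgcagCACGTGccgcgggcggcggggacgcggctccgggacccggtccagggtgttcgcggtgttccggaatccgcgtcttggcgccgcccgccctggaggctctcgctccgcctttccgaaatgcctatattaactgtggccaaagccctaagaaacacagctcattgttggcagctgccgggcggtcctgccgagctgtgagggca
AK4 chr1:65147302-65147601 (+ strand): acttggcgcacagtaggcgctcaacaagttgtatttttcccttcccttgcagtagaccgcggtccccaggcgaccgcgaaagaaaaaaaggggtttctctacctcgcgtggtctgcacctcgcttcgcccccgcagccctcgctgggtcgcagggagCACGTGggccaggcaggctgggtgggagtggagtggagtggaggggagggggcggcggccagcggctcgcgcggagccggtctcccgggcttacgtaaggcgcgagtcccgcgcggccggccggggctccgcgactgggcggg
BNIP3 chr10:131981874-131982173 (- strand): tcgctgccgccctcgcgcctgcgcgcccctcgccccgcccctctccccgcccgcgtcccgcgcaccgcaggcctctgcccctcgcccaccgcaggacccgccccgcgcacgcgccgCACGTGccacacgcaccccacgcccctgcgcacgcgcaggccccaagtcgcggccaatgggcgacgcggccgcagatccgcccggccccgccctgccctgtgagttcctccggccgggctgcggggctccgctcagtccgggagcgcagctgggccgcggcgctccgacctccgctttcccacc
CA9 chr9:35673678-35673977 (+ strand): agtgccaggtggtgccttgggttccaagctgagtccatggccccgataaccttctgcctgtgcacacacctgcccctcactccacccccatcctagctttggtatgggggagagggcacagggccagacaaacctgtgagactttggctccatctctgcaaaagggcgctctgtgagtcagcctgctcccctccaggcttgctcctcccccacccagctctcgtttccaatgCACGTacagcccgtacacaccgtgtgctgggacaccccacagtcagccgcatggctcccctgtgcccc
ADM chr11:10304823-10305122 (+ strand): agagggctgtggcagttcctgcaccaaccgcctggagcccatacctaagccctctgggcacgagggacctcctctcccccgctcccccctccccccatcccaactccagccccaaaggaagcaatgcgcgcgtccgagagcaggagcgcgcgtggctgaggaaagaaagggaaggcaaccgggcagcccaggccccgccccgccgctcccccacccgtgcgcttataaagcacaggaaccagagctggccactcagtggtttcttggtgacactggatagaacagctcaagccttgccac

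Of the 34 genes, 26 matched an entry in the promoter table. The entries missing were those of ANKZF1, BNIP3L, HILPDA, NDRG1, RRAGD, STC1, VEGFA and ZNF395. ACGTG was found on either strand in 16 of the 26 promoters (61.5%), against 2910 of 11352 promoters of genes in the count table (25.6%). GCGTG, which differs in its first base and can overlap ACGTG only in part, was found in 12 (46.2%), against 48.4% of all, and at least one of the pair in 21 (80.8%), against 60.6%. In CITED2 the palindrome began 153 bases before the start site, in BNIP3 134, in AK4 93 and in BHLHE41, a transcriptional repressor, 48. The CA9 core lay 18 bases before the start site, and BHLHE40, ANKRD37, NARF, PPP1R3C and WSB1 carried more than one match that did not share a palindrome. A match is a description of the letters in this window and does not show binding by HIFs or by any other factor. The genes were listed as hypoxia-inducible, so a higher share with the core is not independent evidence. Only the first entry of each gene was used. The entries of RORA and YEATS2 lie at starts inside the annotated gene, so their outermost starts were not searched.

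**Figure D1:**
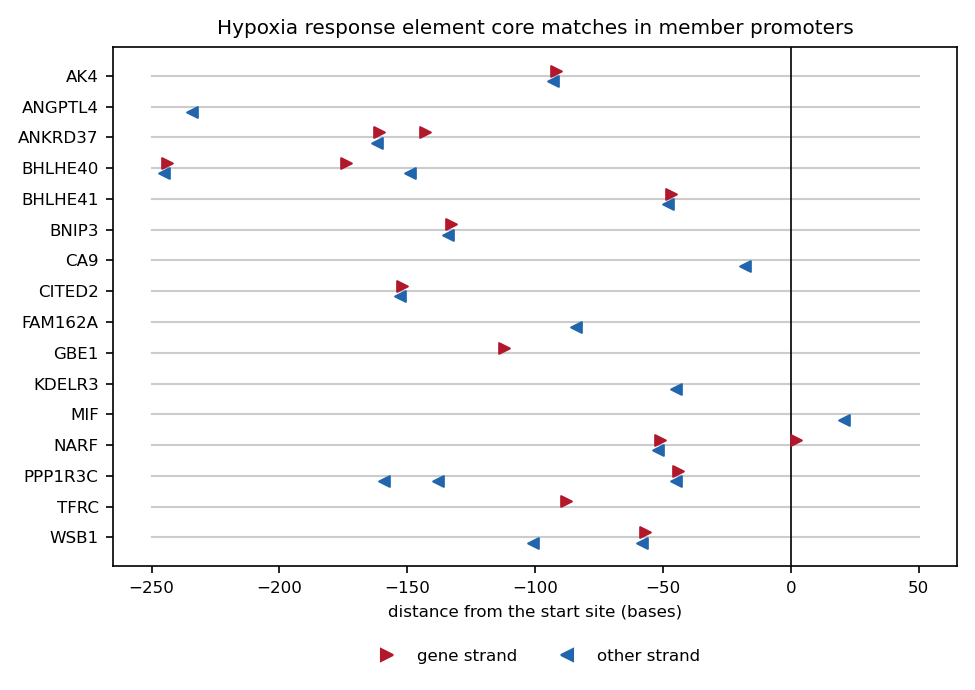
Position of each ACGTG match in the promoters of the 16 genes that held one, as distance in bases from the start site (x axis); right-pointing red marks are matches on the gene's strand and left-pointing blue marks are matches on the other strand. Paired marks are palindromes, such as the one that begins 153 bases before the CITED2 start site, and MIF and NARF are the genes with a match after the start site.

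Total counts were 24804250 to 29756313 per library, and precision was limited both by few counts and by the spread between the PRMT3-KD libraries. The PRMT3-KD libraries differed from each other far more than the Ctrl libraries did, with a chi-square per degree of freedom over all genes of 66.4 against 1.42. For the 31 tested genes the median absolute log2 difference was 0.39 between the PRMT3-KD libraries and 0.043 between the Ctrl libraries, and over all 13172 genes tested these were 0.22 and 0.051. PRMT3 itself had 535 and 535 counts in Ctrl and 77 and 45 in PRMT3-KD (log2 fold change -3.08, edgeR adjusted p = 0.0177). Of the 9 glioma markers examined none passed the test; VIM, CD44, NES and SOX2 were abundant in every library (3359 to 149599 counts), while GFAP, an astrocyte marker, had 363, 392, 32 and 153 counts. Of the markers listed for other cell types, 2 of 5 microglial, 2 of 4 endothelial and 3 of 4 neuronal genes were in the table. The oligodendrocyte genes MBP, MOG and MAG had at most 13 counts, the microglial gene PTPRC had 2 to 7 and CSF1R 63 to 149, the endothelial gene VWF had 30 to 70, and CDH5 had 129 to 146 in 3 libraries and 722 in PRMT3-KD library 2. Of the neuronal genes, SYP had 13 to 23 counts, SNAP25 78 to 127 and MAP2, which is not restricted to neurons, 1068 to 1495. None of the tested markers of other types passed the test, and their part in the results was not tested. In bulk RNA, fewer cells of a type and less RNA per cell cannot be told apart.

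As a group the genes did not move in one direction. A gene was counted as higher or lower in PRMT3-KD when it passed edgeR's quasi-likelihood test at a Benjamini-Hochberg adjusted p under 0.05 over all genes tested and a change of more than 1.5-fold. Of the 31 tested genes 2 rose, ADM and RRAGD, and 1 fell, HILPDA, while 28 did not pass. Over all 13172 genes tested, 4.97% were higher and 5.97% lower, so the counts of 2 and 1 of 31 lie near that background. The median log2 fold change was -0.04, against 0.01 over all genes, with 15 genes above 0 and 16 below and quartiles of -0.31 and 0.22. Both PRMT3-KD libraries lay above both Ctrl libraries for 9 genes (29.0%, against 33.3% of all genes) and below them for 10 (32.3%, against 33.8%), and the groups overlapped for 12. The 10 include CXCR4, which passed the low-count filter only through its Ctrl values, and without it 9 of 30 lay below. An unadjusted p under 0.05 was reached by 10 genes (32.3%, against 37.6% of all genes).

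These counts depended on the libraries used. With either Ctrl library left out, no gene of the whole table passed, and the number of genes with an unadjusted p under 0.05 was 1842 without Ctrl library 1 and 1868 without Ctrl library 2 (3 and 7 of the hypoxia-inducible genes). Without PRMT3-KD library 1 4 genes were higher (ADM, CITED2, PNRC1, RRAGD) and 2 lower (CXCR4, HILPDA), against 10.7% and 12.2% of all genes. Without PRMT3-KD library 2, 4 were higher (ADM, BHLHE41, RRAGD, STC1) and 6 lower (AK4, CA9, CXCR4, HILPDA, KDELR3, ZNF395), against 10.1% and 12.2% of all genes, so more genes passed in the whole table too. CXCR4 entered these lists through its Ctrl values, so it could be called only as lower. Of the 28 genes that did not pass with all libraries, 22 had a log2 fold change that moved by more than 1.5 times or turned when 1 of the PRMT3-KD libraries was left out. With all 4 libraries, DESeq2 placed CITED2 and PNRC1 beside ADM and RRAGD as higher and AK4 beside HILPDA as lower (over all genes 6.39% higher and 7.53% lower). limma-voom, with group-wise variance weights, gave the same 4 as higher, and AK4 and KDELR3 as lower (over all genes 5.98% and 6.85%).

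**Figure D2:**
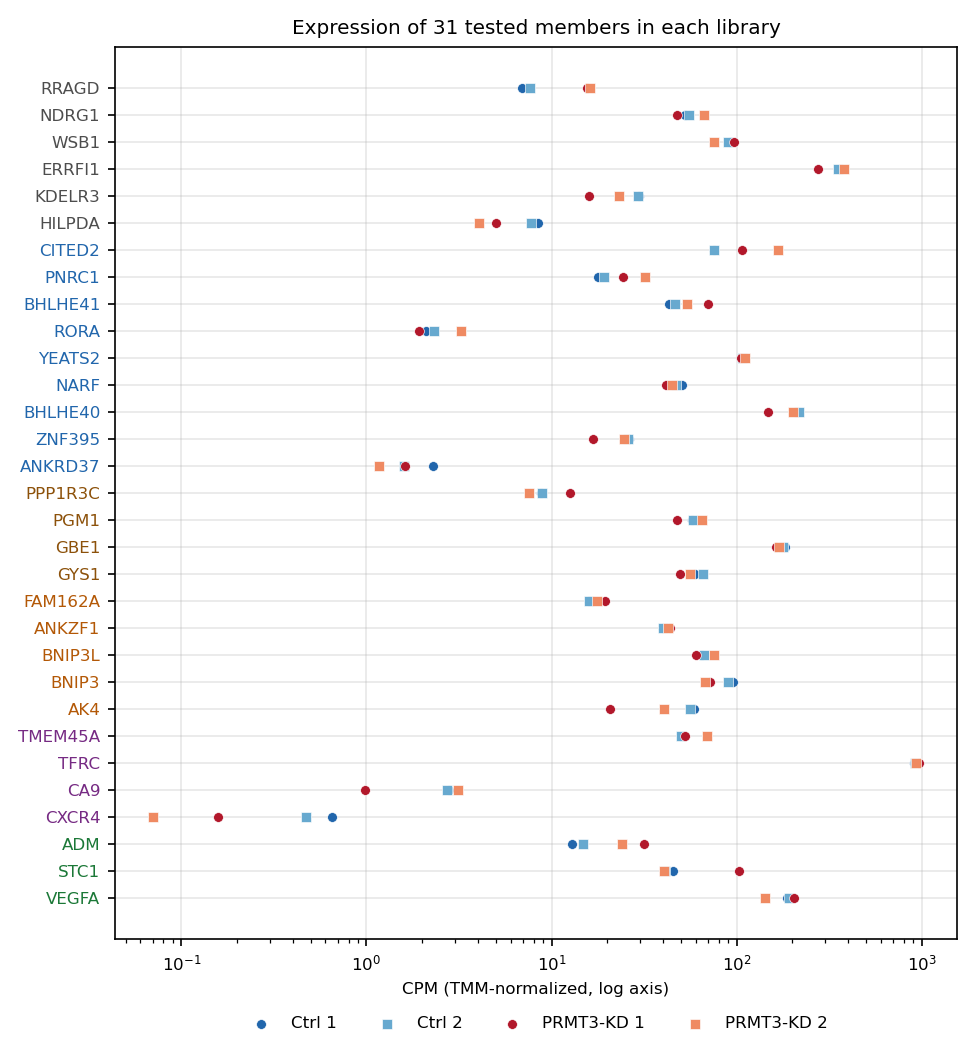
Expression of the 31 tested genes in each library, in CPM (x axis, log scale), with Ctrl libraries in blue and PRMT3-KD libraries in red and orange, and gene names coloured by role. The 2 Ctrl points nearly coincide for most genes, while the 2 PRMT3-KD points of CA9, STC1, AK4 and CITED2 lie apart.

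The 34 genes spanned a wide range of expression. CPM are counts scaled to library size with TMM factors. Per kilobase of merged exons in Ctrl, the mean level was 85.6 CPM for ERRFI1, an inhibitor of the EGF receptor, 60.6 for BHLHE40, 52.8 for TFRC, 38.8 for GBE1 and 29.6 for CITED2. At the low end stood RORA with 0.13, CA12 with 0.057 and ANGPTL4 with 0.0073 CPM per kilobase. This order depends on the merged length, which was 17376 bases for TFRC and 4179 for ERRFI1. Without division by length, TFRC had the highest Ctrl mean, 918 CPM, against 358 for ERRFI1. At least 1000 counts in each Ctrl library were found for 19 of the 34 genes, and under 100 counts in every library for 7. Summed over the 34 genes, expression was 2887 and 2888 CPM in the Ctrl libraries and 2817 and 2959 CPM in the PRMT3-KD libraries, of which TFRC made up 31.8% in Ctrl.

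Among the secreted factors, ADM encodes adrenomedullin, a peptide that widens blood vessels and signals through CALCRL. ADM had 357 and 409 counts in Ctrl and 807 and 681 in PRMT3-KD, so both PRMT3-KD libraries lay above both Ctrl libraries. This was 13.9 ± 1.40 CPM against 27.9 ± 5.51 CPM (SD, n = 2 each), or 2.01-fold higher (log2 fold change 1.0, SE 0.18, edgeR adjusted p = 0.0337). ADM passed under all 8 alternatives of test, scaling, filter and block, with edgeR, DESeq2 or limma adjusted p of at most 0.0499. ADM lies at chr11:10326620-10328944 on the + strand (GRCh37). Its exons overlap no annotated exon of another protein-coding or long noncoding RNA gene.

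VEGFA, the main growth factor for blood vessels, had 5189 and 5260 counts in Ctrl and 5203 and 4029 in PRMT3-KD, with a log2 fold change of -0.13 (95% interval -0.63 to 0.38, edgeR adjusted p = 0.664). The groups overlapped in CPM, with PRMT3-KD library 1 (205) above both Ctrl libraries (187 and 191) and library 2 (142) below them. STC1, a secreted glycoprotein hormone, had 1250 and 1128 counts in Ctrl and 2626 and 1150 in PRMT3-KD, so a high value was seen in PRMT3-KD library 1 alone (log2 fold change 0.74, SE 0.46, edgeR adjusted p = 0.307). Without PRMT3-KD library 2, STC1 passed the threshold (log2 fold change 1.26), and without library 1 its value was -0.087. ANGPTL4, an inhibitor of lipoprotein lipase, and MIF, a cytokine, were filtered out with counts of 0 to 7 and 3 to 7 per library. Of the exonic bases of MIF, 687 of 730 (94.1%) also lie in MIF-AS1 on the other strand, and whether the counting used strand is not given.

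At the cell surface none of the 4 tested genes passed. TFRC, the transferrin receptor that takes up iron, had 25283 and 25383 counts in Ctrl and 24461 and 26508 in PRMT3-KD, or 918 ± 7.29 CPM against 948 ± 21.0 CPM (SD, n = 2 each). The log2 fold change of TFRC was 0.05, with a 95% interval of -0.13 to 0.23, which lies within a 1.5-fold change either way. CXCR4, the receptor for the chemokine CXCL12, had 18 and 13 counts in Ctrl and 4 and 2 in PRMT3-KD. It passed the low-count filter only through its Ctrl values, so it could enter the test only as a gene that was lower, and it is given here by its counts. Without CXCR4, 9 of the other 30 genes had an unadjusted p under 0.05 and the median log2 fold change of the 30 was -0.016. TMEM45A, a membrane protein, had a log2 fold change of 0.26 (edgeR adjusted p = 0.28), which was 0.44 without PRMT3-KD library 1 and 0.045 without library 2.

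The carbonic anhydrases CA9 and CA12, surface enzymes that help keep the pH of hypoxic cells, were both weakly expressed. CA9 had 77 and 75 counts in Ctrl and 25 and 89 in PRMT3-KD, with PRMT3-KD library 1 low and library 2 above both Ctrl libraries. Its log2 fold change was -0.41 with a 95% interval of -1.90 to 1.08 (edgeR adjusted p = 0.635), and it was 0.19 without PRMT3-KD library 1 and -1.48, past the threshold, without library 2. Of its 1598 exonic bases, 571 (35.7%) lie in ARHGEF39 on the other strand. CA12 had 14 and 8 counts in Ctrl and 4 and 9 in PRMT3-KD and was filtered out.

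Among the mitochondrial genes none of 5 passed both criteria. BNIP3 and BNIP3L encode receptors on the outer mitochondrial membrane that mark mitochondria for mitophagy. BNIP3 had 2663 and 2478 counts in Ctrl and 1817 and 1918 in PRMT3-KD, both below both Ctrl libraries, or 93.1 ± 4.26 CPM against 69.5 ± 2.83 CPM (SD, n = 2 each). Its log2 fold change of -0.42 (SE 0.08, edgeR adjusted p = 0.0374) was past the p threshold but is 1.34-fold, short of 1.5-fold. The adjusted p was 0.0586 with library totals and 0.0666 with the replicate number as a block in edgeR. The annotation holds 44 pseudogenes named after BNIP3, so its count is uncertain where reads could be split among copies. BNIP3L had 1805 and 1829 counts in Ctrl and 1526 and 2146 in PRMT3-KD, on either side of the Ctrl values (log2 fold change 0.04, 95% interval -0.31 to 0.39, edgeR adjusted p = 0.838).

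AK4, a mitochondrial adenylate kinase, had 1635 and 1539 counts in Ctrl and 526 and 1154 in PRMT3-KD. Both PRMT3-KD libraries lay below both Ctrl libraries, library 1 by 1.47 and library 2 by 0.50 on the log2 scale. The log2 fold change was -0.90 (SE 0.33, edgeR adjusted p = 0.127), with an adjusted p of 0.0189 in DESeq2 and 0.0214 in limma-voom. There are 5 pseudogenes named after AK4. FAM162A, a mitochondrial protein linked to cell death in hypoxia, and ANKZF1, which releases stalled peptides from ribosomes and protects mitochondria, had log2 fold changes of 0.22 and 0.11 (edgeR adjusted p = 0.213 and 0.365).

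None of the 4 glycogen genes passed. GYS1, muscle-type glycogen synthase, had 1659 and 1804 counts in Ctrl and 1250 and 1598 in PRMT3-KD (log2 fold change -0.25, edgeR adjusted p = 0.166), and GBE1, the branching enzyme, had 5075 and 4889 against 4122 and 4787 (-0.13, edgeR adjusted p = 0.262). PGM1, which links glucose 1-phosphate and glucose 6-phosphate, and PPP1R3C, which brings protein phosphatase 1 to glycogen, had log2 fold changes of -0.04 and 0.19. For both, the PRMT3-KD libraries lay on opposite sides of the Ctrl libraries. The 95% intervals of GYS1, GBE1 and PGM1 lay within a 1.5-fold change either way.

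Of the 9 nuclear regulators none passed. CITED2, PNRC1 and BHLHE41 had an unadjusted p under 0.05, 3 of 9 where 37.6% of all genes did. CITED2 competes with HIF-α for the coactivators CREBBP and EP300 and so limits the response. It had 2099 and 2083 counts in Ctrl and 2718 and 4740 in PRMT3-KD, or 75.7 ± 0.020 CPM against 137 ± 42.3 CPM (SD, n = 2 each). Both PRMT3-KD libraries lay above Ctrl, library 2 much further than library 1 (log2 fold change 0.85, SE 0.23, edgeR adjusted p = 0.0682). CITED2 passed in DESeq2 (adjusted p = 0.00227), in limma-voom (adjusted p = 0.00774), and in edgeR once the replicate number was added as a block (adjusted p = 0.0401).

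PNRC1, a coregulator of nuclear receptors, had 494 and 531 counts in Ctrl and 617 and 910 in PRMT3-KD (log2 fold change 0.60, SE 0.17, edgeR adjusted p = 0.0731), and passed in DESeq2 (adjusted p = 0.0317) and limma-voom (adjusted p = 0.0383). The repressors BHLHE40 and BHLHE41 are close paralogs of the circadian and hypoxic responses. BHLHE41 had 1191 and 1277 counts in Ctrl and 1778 and 1534 in PRMT3-KD, with no overlap (log2 fold change 0.47, edgeR adjusted p = 0.0981). BHLHE40, the more abundant of the pair, had 5819 and 5937 counts in Ctrl and 3746 and 5714 in PRMT3-KD, with only library 1 far below Ctrl (log2 fold change -0.29, edgeR adjusted p = 0.272).

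The other nuclear regulators were YEATS2, a reader of acylated histones, with a log2 fold change of 0.01 and a 95% interval of -0.18 to 0.19, and NARF, which binds prelamin A, with -0.18 (-0.43 to 0.06). ZNF395, a zinc finger protein, had -0.33 (-0.88 to 0.22), ANKRD37, an ankyrin repeat protein, -0.48 (-1.35 to 0.38), and RORA, a nuclear receptor, 0.23 (-0.63 to 1.09). Exons shared with another gene covered 40.4% of the ANKRD37 length (UFSP2, other strand) and 35.0% of the ZNF395 length (FBXO16, same strand). RORA and ANKRD37 had fewer than 100 counts in every library, and their intervals were wide.

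The cytoplasmic and endoplasmic reticulum (ER) genes held 1 gene that rose and 1 that fell. RRAGD encodes a Rag GTPase that brings mTORC1 to the lysosome in answer to amino acids. It had 192 and 211 counts in Ctrl and 393 and 458 in PRMT3-KD, or 7.30 ± 0.52 CPM against 15.8 ± 0.46 CPM (SD, n = 2 each), a 2.16-fold increase (log2 fold change 1.11, SE 0.12, edgeR adjusted p = 0.0188). The PRMT3-KD libraries were close to each other, at 1.08 and 1.14 above the Ctrl mean on the log2 scale, and RRAGD passed under all 8 alternatives of test, scaling, filter and block. RRAGD lies at chr6:90074335-90121992 on the - strand (GRCh37).

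HILPDA sits on lipid droplets and slows the breakdown of stored fat by inhibiting adipose triglyceride lipase. It had 235 and 214 counts in Ctrl and 127 and 115 in PRMT3-KD, all PRMT3-KD values below all Ctrl values, or 8.13 ± 0.50 CPM against 4.52 ± 0.67 CPM (SD, n = 2 each). HILPDA fell by 0.85 on the log2 scale (SE 0.18, edgeR adjusted p = 0.0447), which is 1.80-fold. This call ended with scaling by library totals (edgeR adjusted p = 0.0599), with the replicate number as a block (edgeR adjusted p = 0.0565) and in limma-voom (adjusted p = 0.0749). HILPDA lies at chr7:128095903-128098472 on the + strand (GRCh37).

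KDELR3, a receptor that returns proteins to the ER, had 824 and 809 counts in Ctrl and 406 and 654 in PRMT3-KD, with no overlap (log2 fold change -0.60, SE 0.19, edgeR adjusted p = 0.102, limma-voom adjusted p = 0.0421). ERRFI1 had 10008 and 9739 counts in Ctrl and 7022 and 10860 in PRMT3-KD, on either side of Ctrl (log2 fold change -0.12, 95% interval -0.57 to 0.33). NDRG1, a stress-responsive protein that limits metastasis in several cancers, and WSB1, a subunit of ubiquitin ligases, had log2 fold changes of 0.08 and -0.09 with overlapping groups.

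**Figure D3:**
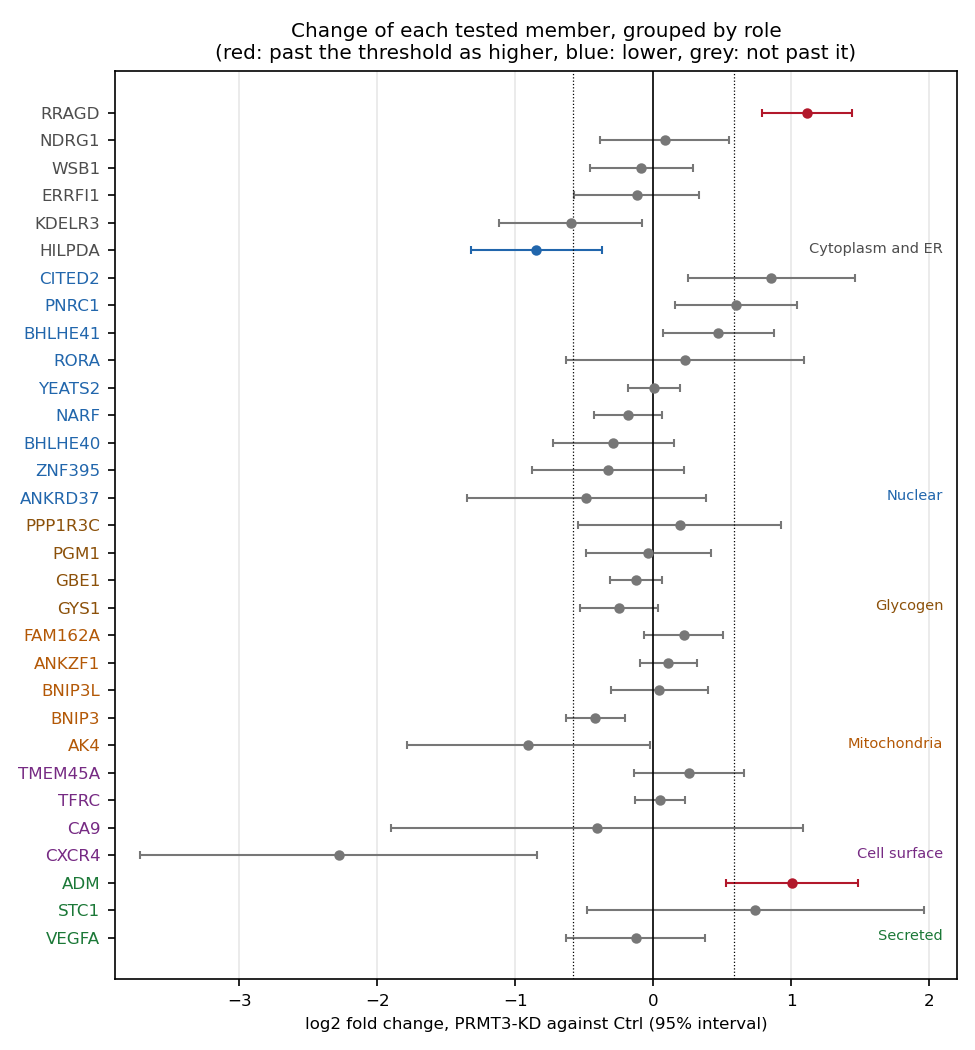
log2 fold change of PRMT3-KD against Ctrl for the 31 tested genes (points) with 95% intervals (bars), grouped by role; dotted lines mark 1.5-fold, red marks genes past the threshold as higher and blue as lower. RRAGD (1.11) and ADM (1.0) are the red points, HILPDA (-0.85) is the blue point, and CXCR4 and CA9 have the widest intervals.

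For 12 of the 31 genes the 95% interval lay wholly within a 1.5-fold change either way, against 37.01% of all genes tested. These were ANKZF1, BNIP3L, ERRFI1, FAM162A, GBE1, GYS1, NARF, NDRG1, PGM1, TFRC, WSB1 and YEATS2. For the 28 genes that did not pass, the median half-width of the interval was 0.45 on the log2 scale and the widest, that of CA9, was 1.49.

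The 2 PRMT3-KD libraries disagreed in part of these genes. In 11 of 31 (35.5%) the 2 libraries lay on opposite sides of the Ctrl mean, against 25.7% of all genes. In 10 of 31 they differed by more than 0.5 on the log2 scale, against 21.6% of all genes, and 18 of 31 were lower in library 1 than in library 2, against 46.4% of all genes. The median log2 ratio to the Ctrl mean was -0.15 in library 1 and 0.02 in library 2. No test was made of these shares. CA9, STC1, AK4, CITED2 and ZNF395 were among the genes that differed, whereas RRAGD, BNIP3 and TFRC had similar values in both libraries.

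**Figure D4:**
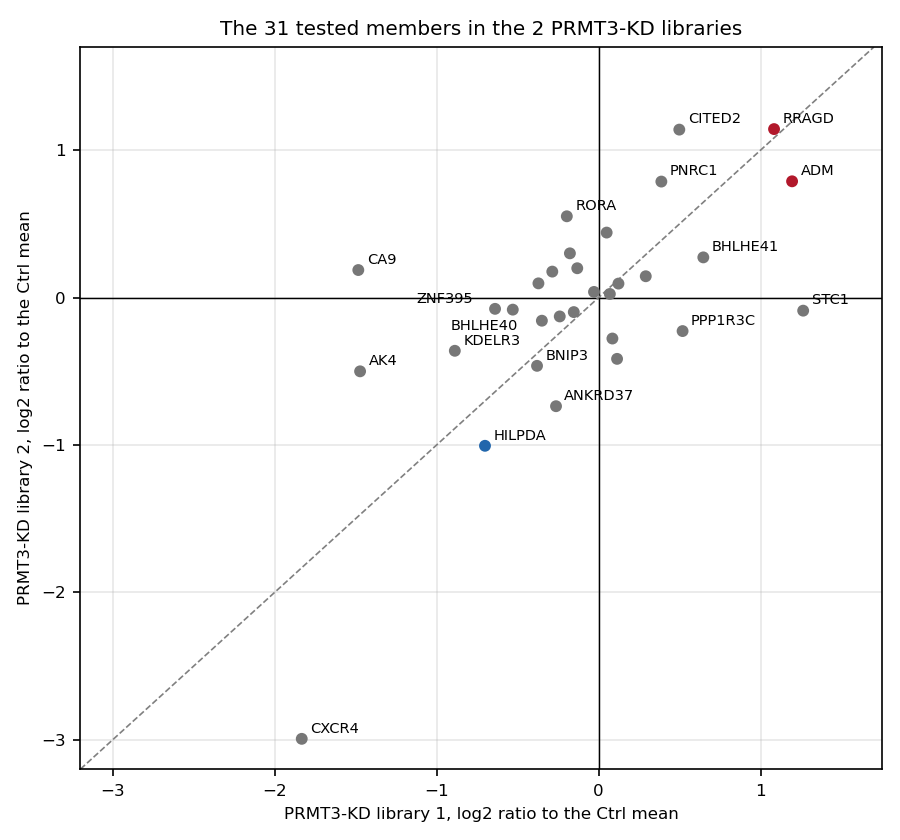
log2 ratio to the Ctrl mean in PRMT3-KD library 1 (x axis) and library 2 (y axis) for the 31 tested genes; the dashed line marks equal values, red marks genes past the threshold as higher, blue as lower. RRAGD lies near the line at 1.08 and 1.14, while CA9 (-1.48 and 0.19) and STC1 (1.26 and -0.09) lie far from it.

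Transcripts of the factors that drive the response changed in both directions, where 4.97% of all genes tested were higher and 5.97% lower. HIF1A had 20448 and 20042 counts in Ctrl and 4973 and 8204 in PRMT3-KD, so it fell by 1.60 on the log2 scale (SE 0.20, edgeR adjusted p = 0.0204), by 1.91 in library 1 and by 1.34 in library 2. EPAS1, the gene of HIF-2α, had 1433 and 1431 counts in Ctrl and 2843 and 2666 in PRMT3-KD and rose by 0.99 (SE 0.11, edgeR adjusted p = 0.0192). HIF1AN, the inhibitory hydroxylase, fell by 0.75 (edgeR adjusted p = 0.0198). Among the 11 tested genes of oxygen sensing these 3 passed, and the median was 0.01; the coactivators EP300 and CREBBP, which had the highest CPM, not divided by length, among those that did not pass, had log2 fold changes of 0.15 and 0.01. These are transcript levels, and HIF-α activity is set largely at the protein level.

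Other genes of the hypoxic response were counted in the same fit, in which 4.97% of all genes were higher and 5.97% lower. Of 22 genes of glycolysis, a list that also holds transporters and regulators, 8 fell and none rose, with a median of -0.39. The glycolysis genes that fell were PGK1 (-1.89), PFKL (-1.07), SLC16A3 (-0.81), ENO1 (-0.77), GAPDH (-0.68), SLC2A1 (-0.65), GPI (-0.65) and PDK1 (-0.61), while PKM and ALDOA, with the highest CPM, not divided by length, among the others, had 0.11 and -0.12. TPI1, PFKM and HK1 also passed the p threshold but fell short of 1.5-fold. TPI1 had -0.41 and PFKM -0.39, while HK1 was higher, at 0.34 (edgeR adjusted p = 0.0302, 0.0390 and 0.0409). Glycolysis genes are part of what the study drew from these same libraries, so the list is not independent evidence of its direction. Of 30 other tested hypoxia-inducible genes, 4 rose and 1 fell, with a median of 0.13. EFNA1, an ephrin ligand, rose by 1.77, PDGFB, a growth factor, by 1.59, KLHL24, a ubiquitin ligase adaptor, by 1.34 and PLAUR, the urokinase receptor, by 1.23. MXI1, a MYC antagonist, fell by 0.89, and LOXL2, an abundant gene that did not pass, had 0.29. The difference between these lists and the 31 genes was not tested.

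The partners of single genes were examined in the same fit, beside 4.97% of all genes higher and 5.97% lower. For the ligands and receptors, 1 of 10 tested partners rose and 1 fell (median 0.10). CALCRL, the receptor subunit for adrenomedullin, had 237 and 217 counts in Ctrl and 380 and 369 in PRMT3-KD (log2 fold change 0.76, edgeR adjusted p = 0.0343). KDR, the main VEGFA receptor, had 556 and 612 against 340 and 284 (-0.86, edgeR adjusted p = 0.0428), and the VEGFA coreceptors NRP2 and NRP1 had -0.78 and -0.32 without passing (edgeR adjusted p = 0.0555 and 0.0764).

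For glycogen, 3 of 15 other tested genes rose and 2 fell (median 0.12), against 4.97% and 5.97% of all genes. GYG2, a glycogenin that primes glycogen, rose by 1.87, PPP1R3B, a phosphatase subunit that targets glycogen, by 0.94 and GAA, the lysosomal glucosidase, by 0.61. PPP1R3E fell by 0.86 and GSK3A, a kinase that inhibits glycogen synthase, by 0.59, while the phosphorylase PYGB and the mutase PGM2 had 0.26 and 0.13. For mitophagy, 1 of 13 other tested genes passed (median 0.29): SQSTM1, an autophagy receptor, had 12436 and 12529 counts in Ctrl and 32306 and 26365 in PRMT3-KD, and rose by 1.28 (edgeR adjusted p = 0.0212). FKBP8 and MAP1LC3B had 0.12 and 0.37, the latter short of 1.5-fold. For iron, 1 of 9 other tested genes passed (median 0.18): HFE, which binds TFRC, fell by 1.38 (edgeR adjusted p = 0.0142), and the ferritin chains FTL and FTH1 had -0.25 and -0.06.

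The log2 fold changes were also set beside the promoter matches. The 14 tested genes with ACGTG in the window had -0.90 to 0.85, with 5 above 0 and 9 below, a median of -0.15 and 0 past the threshold by edgeR. Of these, AK4, BHLHE41, BNIP3, CITED2 and KDELR3 had an unadjusted p under 0.05. The 4 tested genes with GCGTG and no ACGTG were ADM (1.0), PNRC1 (0.60), GYS1 (-0.25) and CXCR4, of which 1, ADM, passed. The 5 tested genes with an entry and neither form, ERRFI1, PGM1, RORA, TMEM45A and YEATS2, had -0.12 to 0.26, a median of 0.01 and 0 past the threshold by edgeR. For RORA and YEATS2 this holds only for a start inside the annotated gene. CITED2, AK4 and BNIP3, which share the palindrome shown above, had 0.85, -0.90 and -0.42. The same palindrome was in BHLHE41 (0.47), PPP1R3C (0.19), WSB1 (-0.09), NARF (-0.18), BHLHE40 (-0.29) and ANKRD37 (-0.48). No test was made of this description.

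The sequence CAGCTCA, searched on the transcript strand of 3′ UTRs because of earlier results on these data, was found in 3 of the 34 genes (8.82%) against 2413 of 14314 genes with a 3′ UTR (16.9%). AK4 carried it at chr1:65697588-65697594 (GRCh37, + strand), in the context
AK4: tgaaatgtCAGCTCAagtttccc
where capitals mark the match. FAM162A carried 1 and NARF 2. The log2 fold changes of AK4, FAM162A and NARF were -0.90, 0.22 and -0.18. Over all tested genes with a 3′ UTR the median was -0.11 with the sequence (2214 genes) and 0.03 without it (10419 genes). Because the choice of the sequence came from these data, this difference is not independent evidence, and it was not tested. The length of the 3′ UTR was not taken into account.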

How the data were processed

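Total RNA of U251 cells was sequenced in 2 Ctrl and 2 PRMT3-KD libraries, grouped by their titles. The authors deposited a table of counts, whole numbers per gene and library, made with TopHat, hg19 and Cufflinks without normalization. CASAVA and DESeq2 are also named in the submitters' processing notes. Versions, gene annotation, filters and strandedness are not given in the sources used here. Multi-mapped reads may have been split or dropped, which bears on genes with pseudogenes.

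Of 15576 rows 1 exact duplicate was removed. In edgeR 4.0.16 (R 4.3.3), filterByExpr (minimum count 10, minimum total 15) kept 13172 genes, scaling was by TMM, and glmQLFit and glmQLFTest gave p-values, adjusted by Benjamini-Hochberg over all genes tested. Standard errors were derived from the F statistic. Intervals are 95%. An exact permutation test of 2 against 2 libraries cannot go below p = 0.333 (two-sided), so none was used for single genes. The fit was checked on simulated data. All simulated libraries were given the same spread, so this check does not cover the wider spread between the PRMT3-KD libraries. Total counts of 24804250 to 29756313 set the counting precision.

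The 34 genes, the gene lists (oxygen sensing, glycolysis, other hypoxia-inducible, glycogen, mitophagy, iron, ligand partners, cell type markers) and the motifs were chosen with earlier results of these data known. All 34 genes are named; counts are given for those past the threshold or with an unadjusted p under 0.05, for 3 paralog pairs and for a few others chosen after their values were seen. Of the other lists, genes past the threshold and up to 2 others of the highest mean CPM are named, and TPI1, PFKM and HK1 were added after their values were seen. A few listed genes are not reported here by name. Exons and 3′ UTRs came from GENCODE v44 lifted to GRCh37, matched by identifier, and promoters from RefSeq.

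Alternatives were DESeq2 1.42.0, the tool of the study's methods, limma-voom (limma 3.58.1) with a variance weight for each group, 3 other scalings, 2 other filters, the replicate number as a block, each library left out, and other fold thresholds.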

Additional observations from a re-analysis of the deposited data

How the results depend on the processing

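Over the 8 alternatives of test, scaling, filter and block, 235 of 247 values of single hypoxia-inducible genes kept their direction and their side of the threshold, 8 newly passed, 3 no longer passed (all HILPDA) and 1 turned (YEATS2, -0.027 with library totals). With each library left out, 96 of 124 values kept both; a lone library was then assumed to vary like the other group. For the 11 genes that turned, the values without PRMT3-KD library 1 and then without library 2 were 0.20 and -0.14 for BNIP3L, 0.30 and -0.18 for NDRG1, 0.55 and -0.20 for RORA, -0.41 and 0.11 for VEGFA, -0.28 and 0.081 for WSB1, 0.040 and -0.033 for YEATS2 (-0.0045 without Ctrl library 2), 0.19 and -1.48 for CA9, 0.098 and -0.38 for ERRFI1, 0.18 and -0.29 for PGM1, -0.23 and 0.51 for PPP1R3C, and -0.087 and 1.26 for STC1. For the median of the 31 genes they were -0.024 and -0.17, for PRMT3 -3.61 and -2.68, and for HIF1A -1.34 and -1.91. The same-numbered libraries deviated together with a correlation of 0.022. The Ctrl libraries differed little beyond counting noise (chi-square per degree of freedom 1.42), so this value cannot tell whether the numbers pair the libraries. With the replicate block, the hypoxia-inducible genes past the threshold were 3 higher and 0 lower, and 10 had an unadjusted p under 0.05; over all genes there were 663 higher and 801 lower.

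Hypoxia-inducible genes past the threshold as higher numbered 4 with DESeq2, 4 with limma-voom, 0 with glmTreat (4 had an unadjusted p under 0.05) and 0 to 4 with a library left out. Those lower numbered 2 with DESeq2, limma-voom and no fold threshold, 0 with library totals, the replicate block, glmTreat and a 2-fold threshold, and 0 to 6 with a library left out. Over all genes, higher and lower were 22 and 43 with glmTreat, 228 and 284 at 2-fold, 1105 higher with no fold threshold, and 0 to 1432 and 0 to 1636 with a library left out. Without a Ctrl library, adjusted p was 0.0764 or 0.0604 for PRMT3 (log2 fold change -3.08 or -3.07) and 0.108 or 0.0868 for HIF1A (-1.59 or -1.61). In the other lists, glmTreat left 1 glycolysis gene and 0 elsewhere. At 2-fold there were 1 of oxygen sensing, 2 of glycolysis, 1 of glycogen and 0 ligand partners, and with no fold threshold 2 of mitophagy and 2 of iron. Library totals and the replicate block each gave 3 of glycogen, library totals gave 1 ligand partner and DESeq2 gave 4. With a library left out the counts ran from 0 to 4 for oxygen sensing, 7 for glycolysis, 9 for other hypoxia-inducible genes, 6 for glycogen, 3 for mitophagy, 3 for iron and 6 for ligand partners. The cause of these moves was not tested. Counts under 100 in every library were found for CXCR4, CA9, RORA and ANKRD37 among the tested genes.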
